A study of Mus musculus with 21 samples.

Results

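The HDE by NNK interaction measures how far the lung response to hog dust extract (HDE) differed between mice given the tobacco carcinogen NNK and mice that were not. For each gene it is the log2 ratio of HDE + NNK to saline + NNK lungs, minus the log2 ratio of HDE only to saline only lungs. All 770 genes of a mouse cancer immunology panel (750 endogenous and 20 housekeeping genes) were taken, in all 21 lungs of the series. The lungs fell into 4 groups. Without NNK there were 6 saline only and 4 HDE only mice, and with NNK there were 6 saline and 5 HDE mice, called saline + NNK and HDE + NNK. All animals were A/J mice of both sexes, aged 8 to 12 weeks when they arrived from the supplier. They were then given 50 µL of fluid into the nose 3 times a week for 24 weeks, before the lungs were taken. The fluid was 12.5% HDE, an aqueous and sterile-filtered extract of settled dust from swine barns, or saline. NNK was given as 1 intraperitoneal dose of 100 mg/kg at the start of week 4, and the other mice were injected with buffer alone. Males numbered 3 of 4 in the HDE only group, 1 of 6 in saline only, 2 of 5 in HDE + NNK and 3 of 6 in saline + NNK. Each library came from the left lung of 1 animal, after lavage of the airways and after visible tumors had been cut out, so lavaged airway cells and excised tumor tissue were outside the measurement. Some control mice of the wider study had tail vein injections of ethanol in saline, and which libraries that concerns is not given in the sources used here.

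Swine barn dust carries bacterial and fungal products that airway epithelium and macrophages sense through Toll-like and C-type lectin receptors. These receptors drive chemokines that bring monocytes, neutrophils, eosinophils and lymphocytes into the lung. NNK is a nitrosamine that is converted in the lung to DNA-alkylating species, and the A/J strain readily forms lung adenomas after a single dose. Tumor-bearing lung can alter the same pathways through antigen presentation, interferon signaling, checkpoint ligands such as Cd274 (PD-L1) and the recruitment of macrophages, all of which the panel covers.

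Levels are given as normalized counts, meaning raw barcode counts divided by a library factor that is the geometric mean of 4 housekeeping genes, Sdha, Rpl19, Oaz1 and Eef1g. The test covered the 388 genes whose raw counts averaged 87 or more, while 378 fell short and the 4 scaling genes were set aside. Total gene counts ran from 174604 to 529829 per library, and the negative control probes reached a mean plus 2 SD of 13.1 to 43.7 counts. The libraries were read in 2 instrument runs, named run 1 and run 2 here, each with numbered lanes. Values of single lungs are listed as run 1 lanes 10 and 12 and run 2 lanes 11 and 12 for HDE only, and as run 1 lanes 7, 8, 9 and 11 and run 2 lane 9 for HDE + NNK. Run 1 held 4 HDE + NNK, 2 HDE only, 4 saline + NNK and 2 saline only libraries, and run 2 held 1, 2, 2 and 4 of the same. Lung markers were present in every library, with normalized counts of 1958 to 4019 for Pecam1 (endothelium) and 356 to 517 for Epcam (epithelium). HDE only run 2 lane 12 stood apart from its group. Of 52 genes that HDE raised over 2-fold on average, it lay above all 6 saline only lungs in 35, whereas the other HDE only libraries did so in 52 each. HDE + NNK run 1 lane 11 lay above all its controls in 47 of them, and the other HDE + NNK libraries in 51 or 52. Saline only run 2 lane 3 carried a quality mark in the deposited header.

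HDE changed the lung to a similar extent with and without NNK, and no gene passed the test for a difference between the 2 responses. Of the 388 genes, 0 (0%) passed an adjusted p under 0.05 for the interaction, by quasi-likelihood in edgeR, adjusted after Benjamini and Hochberg. Before adjustment 4 genes (1.03%) had p under 0.05, against 5 in DESeq2 and 3 in limma, and both of those tools also called 0 after adjustment. The smallest unadjusted p was 0.023. Estimates had a median of −0.04 on the log2 scale, and the middle 90% of genes lay between −0.32 and 0.26. They ranged from −0.77 to 0.86, with 158 above and 230 below 0. The median standard error was 0.25. The 95% interval stayed within a 2-fold difference in either direction for 343 genes and within 1.5-fold for 137, and it reached past 2-fold for the other 45. For 384 genes the interval included 0. The number of genes with an interval within 2-fold depended on the scaling. It was 352 with TMM factors, 350 with all panel housekeeping genes and 294 with background subtraction. With no scaling it was 152, and with the positive control probes 0.

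HDE raised 117 genes (30.2%) and lowered 17 (4.38%) in mice without NNK, and it raised 116 (29.9%) and lowered 22 (5.67%) in mice with NNK. Both responses called 112 genes, all in the same direction. The median HDE effect was 0.16 in each, and 337 of 388 genes had the same sign. Across genes, which are not independent replicates, the 2 effects had a Pearson correlation of 0.956 and a Spearman correlation of 0.920, and they share no library. Rises made up 87.3% of the calls without NNK and 84.1% with NNK. That split followed the scaling. It was 57.6% and 56.4% with TMM factors, 81.3% and 66.0% with all panel housekeeping genes, 94.3% and 73.8% with the positive control probes, and 48.3% and 42.0% with no scaling.

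**Figure D1:**
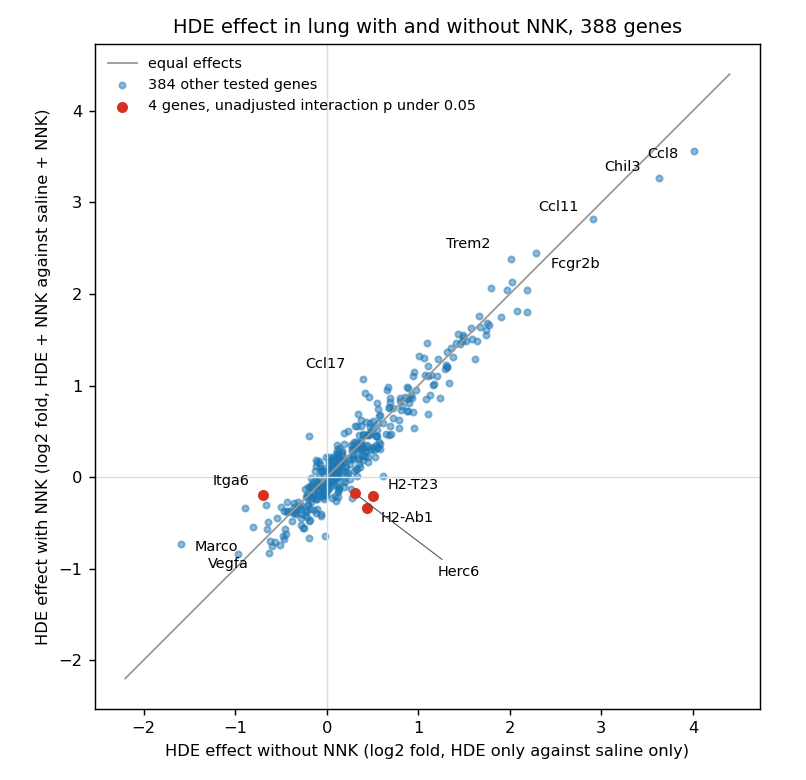
HDE effect per gene as a log2 fold change, without NNK on the horizontal axis and with NNK on the vertical axis, for 388 tested genes. Most genes lie close to the line of equal effects, up to Chil3 and Ccl8 at the high end, and Marco at the low end lies off it (−1.59 without and −0.73 with NNK). The 4 red genes have an unadjusted interaction p under 0.05, and Itga6 is the only one of them past the adjusted threshold for an HDE effect.

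The 4 genes with an unadjusted interaction p under 0.05 were Herc6, H2-T23, Itga6 and H2-Ab1, and 3 of them (0.773% of the genes tested) had an estimate below 0. Herc6 encodes an interferon-induced ubiquitin ligase that in mice attaches ISG15 to proteins. Its normalized counts were 75.2 to 93.8 (median 80.3) in saline only lungs. The 4 HDE only lungs had 108 and 109 in run 1 and 95.9 and 98.8 in run 2, all above every saline only lung. Among NNK-treated mice the saline lungs had 81.0 to 118 (median 100.2), and the HDE lungs had 95.5, 102, 89.2 and 84.4 in run 1 and 65.1 in run 2, which overlapped. Herc6 thus differed by 0.31 ± 0.15 (log2, SE) with HDE in mice without NNK and by −0.18 ± 0.13 in mice with NNK, neither past the adjusted threshold. The interaction was −0.48 ± 0.20, with a 95% interval of −0.89 to −0.07 (edgeR fit of all groups, n = 21, p = 0.023, adjusted p = 1.00). Its unadjusted p stayed under 0.05 with each of the 21 libraries left out in turn, but in only 10 of 17 other alternative fits. The estimate was below 0 in all 17, with −0.54 in run 1 and −0.59 in run 2.

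H2-T23 encodes Qa-1, a nonclassical MHC class I molecule that presents peptides to the NKG2A receptor of NK and T cells. It measured 107 to 163 (median 146) in saline only lungs and 181, 332, 182 and 126 in HDE only lungs. Saline + NNK lungs had 123 to 244 (median 195), and HDE + NNK lungs had 151, 144, 155, 246 and 139. The groups overlapped in both comparisons, and the highest HDE only value came from run 1 lane 12. The estimate was −0.71 ± 0.32 (interval −1.38 to −0.03, edgeR, n = 21, p = 0.040, adjusted p = 1.00), and without HDE only run 1 lane 12 it was −0.40 (n = 20, p = 0.192). Within run 1 it was −1.12 and within run 2 −0.15.

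H2-Ab1 encodes the beta chain of the class II molecule I-A, through which macrophages, dendritic cells and B cells present antigen to CD4 T cells. Its counts were 103 to 234 (median 152) in saline only lungs and 119.9, 185, 264 and 312 in HDE only lungs. With NNK they were 126 to 241 (median 144) in saline lungs and 117, 142, 129.6, 110.2 and 175 in HDE lungs, so the ranges overlapped on both sides. The interaction was −0.77 ± 0.36 (interval −1.51 to −0.03, edgeR, n = 21, p = 0.043, adjusted p = 1.00). H2-Aa, the alpha chain of the same molecule, rose by 0.55 without NNK and 0.52 with NNK, an interaction of −0.03. In saline only lungs H2-Aa measured 4078 to 6399, far above the 103 to 234 of H2-Ab1. H2 genes vary between mouse strains and resemble each other in sequence, and how each probe binds the A/J alleles was not tested.

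Itga6 encodes the integrin alpha 6 subunit, a laminin receptor of basal epithelium, endothelium and many carcinomas. It was the only gene of the 4 past the adjusted threshold in 1 of the HDE comparisons. Saline only lungs had 318 to 516 (median 409), and HDE only lungs had 278, 261, 209.8 and 283, all below them. Saline + NNK lungs had 341 to 519 (median 382), and HDE + NNK lungs had 374, 299, 307, 491 and 282, which overlapped. Itga6 fell by 0.69 without NNK (adjusted p = 0.0028) and differed by −0.20 with NNK (adjusted p = 0.322). The interaction was 0.49 ± 0.23 (interval 0.02 to 0.96, edgeR, n = 21, p = 0.042, adjusted p = 1.00). The library with 491, HDE + NNK run 1 lane 11, moved it most, and without that library the estimate was 0.34 (n = 20, p = 0.110). Within run 1 it was 0.28 and within run 2 0.22.

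**Figure D2:**
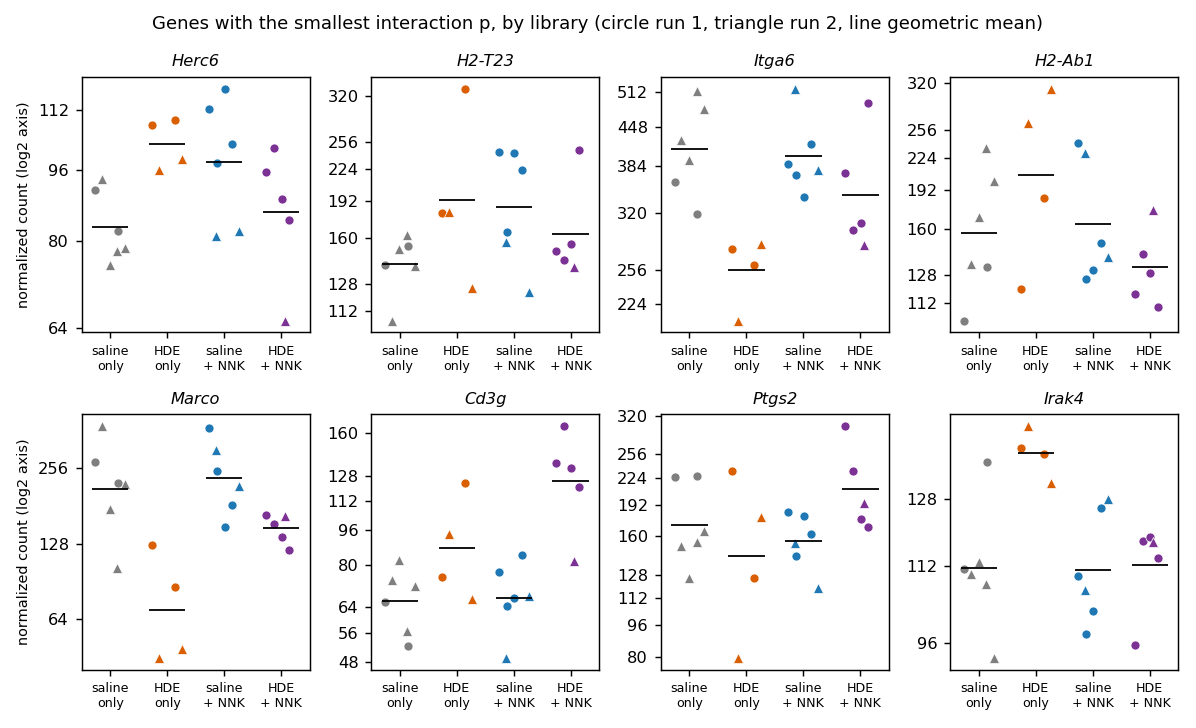
Normalized counts per library on a log2 axis for 8 of the 10 genes with the smallest interaction p, in the 4 groups of lungs. Circles are run 1, triangles run 2 and bars geometric means. HDE only lungs lie above all saline only lungs for Herc6 and below them for Itga6, and the HDE + NNK lungs overlap their controls for both.

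Among the next genes by p were Marco, Ptgs2, C7, Irak4 and Cd3g, with edgeR p from 0.061 to 0.086. Marco, a scavenger receptor of alveolar macrophages that binds inhaled particles and bacteria, had the largest estimate of the 388 genes, 0.86 ± 0.44 (interval −0.04 to 1.77). It measured 102.5 to 379 (median 223) in saline only lungs and 127, 85.5, 44.5 and 48.6 in HDE only lungs, a fall of 1.59 on the log2 scale (adjusted p = 6.9e-04). Saline + NNK lungs had 149 to 373 (median 234), and HDE + NNK lungs had 166, 154, 136, 121 and 165, a difference of −0.73 with an adjusted p of 0.052. Marco was lower with HDE in both sets of mice, and in HDE + NNK lungs 3 of 5 values lay within the control range. With sex as a term in the separate table that carries it, and counts under 87 raised to 87, its interaction was −0.10.

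Cd3g, a chain of the T cell receptor complex, was the clearest lymphocyte gene among them. Saline only lungs had 52.2 to 81.9 (median 68.7) and HDE only lungs had 75.0, 123, 94.4 and 67.0, which overlapped. Saline + NNK lungs had 49.0 to 84.2 (median 67.5) and HDE + NNK lungs had 137, 166, 133, 121 and 81.7, of which 4 of 5 lay above all controls. Cd3g rose with NNK by 0.91 (adjusted p = 3.6e-04) and differed by 0.42 without NNK (adjusted p = 0.125), and the interaction was 0.50 ± 0.28 (interval −0.08 to 1.07). Of the 18 T cell genes on the panel 2 were abundant enough to test. Il7r, the receptor for the T cell survival cytokine IL-7, rose alike in both, by 1.74 and 1.60. Of the 18 panel genes 11 had mean raw counts under 44, and 1 (Cd3eap) is an RNA polymerase I subunit gene. Summed over the 18 genes, the level was 472 to 814 in saline only, 518 to 1804 in HDE only, 417 to 856 in saline + NNK and 755 to 1451 in HDE + NNK lungs. A change in T cell number and a change in T cell RNA per cell cannot be told apart in whole lung. This holds for each cell type named here.

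Ptgs2, the inducible cyclooxygenase that makes prostaglandins, had an interaction of 0.64 ± 0.33, with 233, 126, 79.5 and 179 in HDE only lungs and 301, 233, 177, 169 and 194 in HDE + NNK lungs. The saline only lungs had 126 to 226 and the saline + NNK lungs 119.1 to 184, and neither HDE response passed the threshold. Irak4, the kinase that relays Toll-like receptor and IL-1 receptor signals from MyD88, was at −0.32 ± 0.17. It rose by 0.33 without NNK (adjusted p = 0.047) and differed by 0.01 with NNK. C7, a subunit of the complement membrane attack complex, was at −0.51 ± 0.27 over both runs and at 0.06 in run 2 alone. None of these 5 reached p under 0.05.

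Genes that HDE raised strongly on average were compared between the 2 sets of mice. All 52 genes that HDE raised over 2-fold on average were called without NNK and with NNK, and 48 rose over 2-fold in each. The average of these 2 responses chose the genes, so calls and large rises in both were largely built into the choice. The interaction did not enter the choice of these genes. Their interaction estimates ran from −0.45 to 0.37 with a median of −0.04, equal to that over all genes, and 24 rose more with NNK and 28 more without it. For 38 of the 52 the interval stayed within 2-fold.

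**Figure D3:**
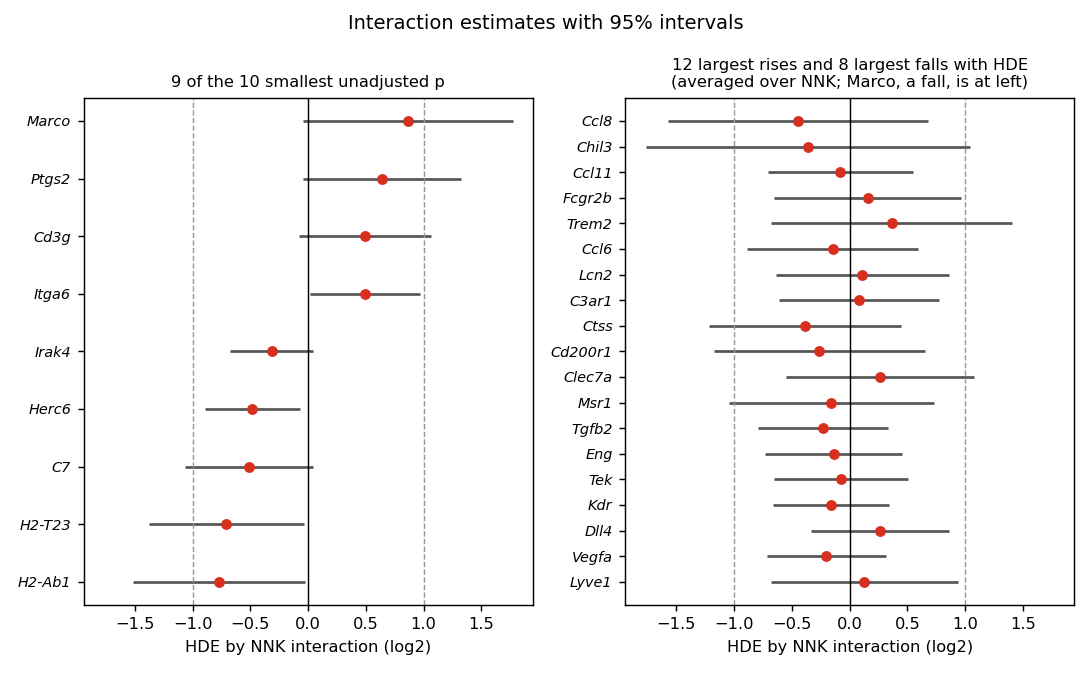
HDE by NNK interaction in log2 units with 95% intervals, for 9 of the 10 genes with the smallest unadjusted p (left) and for the genes with the 12 largest rises and 8 largest falls with HDE (right, except Marco, which is drawn at left). Dashed lines mark a 2-fold difference. Each interval at right includes 0, and those of Marco at left and of Ccl8, Chil3, Trem2, Ctss, Cd200r1, Clec7a and Msr1 reach past 2-fold.

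Chemokines that draw monocytes and eosinophils included Ccl8, the gene with the largest rise in both settings. Of 6 tested, HDE raised 4 without NNK and 5 with NNK (30.2% and 29.9% of all genes tested), and lowered none. Without NNK, 1 of the 6 was lowered with TMM factors, all panel housekeeping genes or background subtraction. Of all 388 genes, 56, 24 and 24 were lowered there. Ccl8, a monocyte and eosinophil attractant, measured 29.6 to 121 (median 87.6) in saline only lungs and 2125, 1481, 1109 and 866 in HDE only lungs. With NNK it measured 42.8 to 201 (median 160.4) in saline lungs and 1453, 2456, 2327, 591 and 1324 in HDE lungs. Every HDE lung lay above every control lung on both sides, and the rises were 4.02 ± 0.41 without and 3.57 ± 0.39 with NNK, an interaction of −0.45 (interval −1.58 to 0.68). Ccl11, or eotaxin, was the most even of these genes. HDE only lungs had 706, 700.3, 678 and 700.1 against 67.7 to 138 in saline only lungs, and HDE + NNK lungs had 439, 677, 673, 498 and 812 against 47.8 to 126 in saline + NNK lungs. The rises were 2.90 ± 0.22 and 2.82 ± 0.21, and the interaction of −0.08 had an interval of −0.71 to 0.55. Ccl6 and Ccl9, 2 further myeloid attractants, had interactions of −0.15 and 0.11 on rises of 2.19 and 1.66 without NNK.

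Ccl17 and Ccl5, which attract T cells, had the largest estimates among the chemokines above the count minimum, with wide intervals. Ccl17 measured 106, 119, 137 and 132 in HDE only lungs against 54.1 to 168 (median 79.5) in saline only lungs. HDE + NNK lungs had 166, 237, 269, 114 and 89.4 against 63.0 to 118 (median 73.1) in saline + NNK lungs, so 3 of 5 lay above all controls. It rose by 1.07 with NNK (adjusted p = 0.0049) and differed by 0.39 without (adjusted p = 0.387), and the interaction was 0.68 (interval −0.20 to 1.56). Ccl5 was at 0.56 (interval −0.47 to 1.58), and HDE lowered or raised it past the threshold in neither set of mice. Of the 6 tested monocyte and eosinophil chemokines, 3 estimates were above and 3 below 0.

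Macrophage receptors and effectors rose together in both settings. Of 29 tested, HDE raised 22 and lowered 2 (Marco and Cd36) without NNK, and raised 23 and lowered 0 with NNK. Of all genes it raised 30.2% and 29.9%. The numbers raised were 20 and 21 with TMM factors, 21 and 22 with all panel housekeeping genes and 21 and 23 with background subtraction. They were 14 and 14 with the positive control probes and 13 and 15 with no scaling. Over all 388 genes the numbers raised were 76 and 101, 104 and 105, 104 and 114, 33 and 31, and 28 and 37 in the same order. With NNK 1 of the 29 was lowered in each of these scalings except background subtraction. Median rises were 1.20 and 1.30, set against 0.16 over all genes, and were at least 0.68 in each of the 5 other scalings. The 29 interaction estimates had a median of 0.03, with 16 above and 13 below 0 and none at p under 0.05. Chil3, a secreted chitinase-like protein of alternatively activated macrophages, measured 1149 to 3900 in saline only and 24429, 11677, 43363 and 12481 in HDE only lungs. In NNK-treated mice it measured 1162 to 4625 in saline lungs and 13692, 32019, 35047, 7350.1 and 35055 in HDE lungs. The rises of 3.63 and 3.27 left an interaction of −0.36 with an interval of −1.77 to 1.04. Fcgr2b, the inhibitory IgG receptor, had 1342, 1911, 1105 and 643 in HDE only lungs and 1284, 1748, 1912, 585 and 828 in HDE + NNK lungs, against at most 300.2 in any control. Its rises were 2.29 and 2.45.

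Trem2 is a lipid receptor of lung and tumor macrophages. HDE only lungs had 303, 304 and 269, and 33.5 in run 2 lane 12, which was below the saline only range of 45.7 to 72.1. HDE + NNK lungs had 182, 243, 359, 141 and 264, all above the saline + NNK range of 34.2 to 69.6. The interaction of 0.36 had an interval of −0.68 to 1.41, and without HDE only run 2 lane 12 it was 0.01. Spp1, the matrix protein osteopontin, had the largest estimate among the genes raised in both, 0.37 on rises of 1.10 and 1.47. Mrc1, the mannose receptor of alveolar macrophages, was at 0.32, and Ctss, a lysosomal protease that trims the class II invariant chain, at −0.39.

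**Figure D4:**
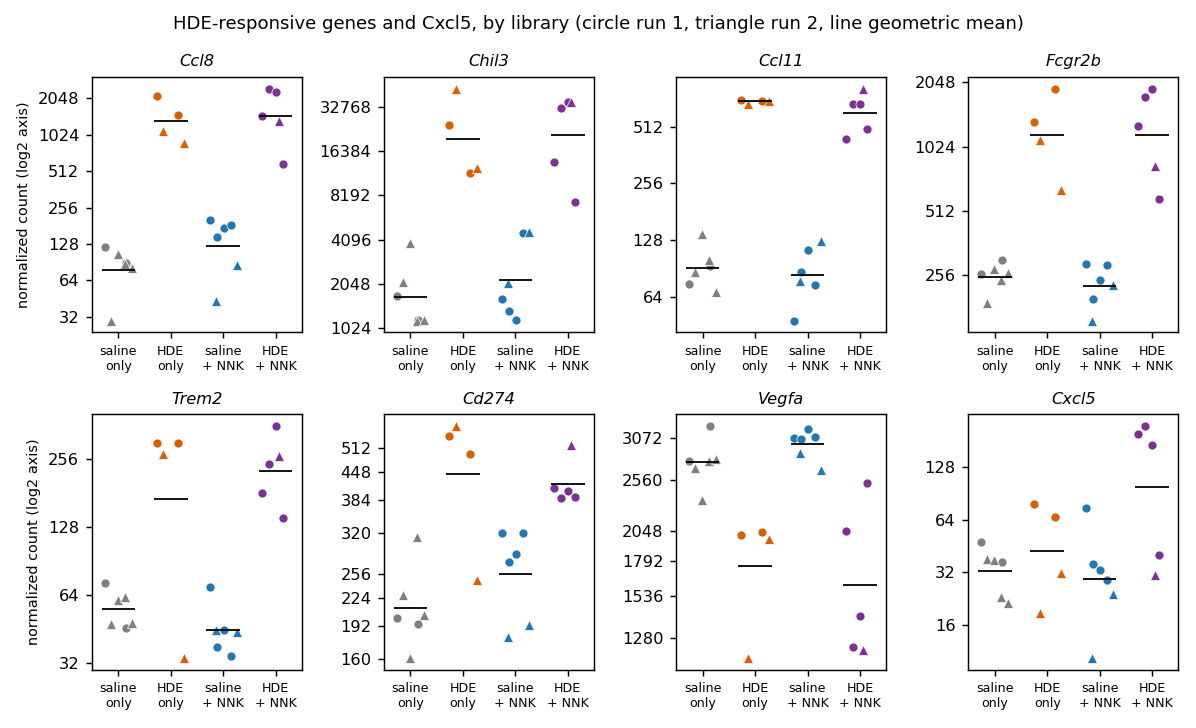
Normalized counts per library on a log2 axis for 7 genes that HDE raised or lowered and for Cxcl5, in the 4 groups. Circles are run 1, triangles run 2 and bars geometric means. HDE lungs separate from their controls for Ccl8, Chil3, Ccl11 and Fcgr2b with and without NNK, 1 HDE only lung lies at the control level for Trem2, and 3 of 5 HDE + NNK lungs stand above all others for Cxcl5.

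Among complement genes, HDE raised 9 of 18 tested without NNK and 11 with NNK, beside 30.2% and 29.9% of all genes, and lowered none. With TMM factors it lowered 2 of them with NNK, beside 78 of all 388 genes. The counts raised followed the scaling, at 2 and 2 with the positive control probes and 1 and 2 with no scaling, where the list's medians turned from 0.40 and 0.36 to −0.15 and −0.13. C3, the central component, rose by 1.11 in each, and C3ar1, the receptor for its C3a fragment, by 1.97 and 2.05. Of 14 Toll-like receptor pathway genes HDE raised 7 and 6, against 2 and 2 with the positive control probes and 1 and 2 with no scaling. The list's medians of 0.49 and 0.33 became 0.28 and −0.02 in the former and −0.07 and −0.13 in the latter. Of all 388 genes, 33 and 31 were raised with the positive control probes and 28 and 37 with no scaling. Cd14, the co-receptor for endotoxin, rose by 1.49 and 1.53. Tlr4, the endotoxin receptor itself, rose by 0.53 without NNK and differed by 0.35 with NNK, an interaction of −0.18 (interval −0.67 to 0.31). NF-kB pathway genes showed 1 rise of 14 in each setting. Neutrophil products included Lcn2, an iron-withholding protein of neutrophils and epithelium, which rose by 2.02 and 2.13, with HDE values of 3371 to 9165 without NNK and 3126 to 9825 with NNK. The interaction medians of the 4 lists lay between −0.05 and −0.01, with 0 members of any at p under 0.05.

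B cell genes rose in both sets of mice, 4 of 4 tested, beside 30.2% and 29.9% of all genes raised. All 4 stayed raised in both sets with TMM factors, all panel housekeeping genes or background subtraction. With the positive control probes 2 and 1 were raised, beside 33 and 31 of all 388 genes. With no scaling 2 and 3 were raised, beside 28 and 37 of all genes. Ms4a1, which encodes CD20, rose by 1.77 and 1.66. Interactions of the 4 genes lay between −0.33 and 0.05. Summed over the 12 B cell genes on the panel, the level was 673 to 1671 in HDE only and 968 to 1980 in HDE + NNK lungs, against 346 to 654 and 339 to 821 in the controls. The summed neutrophil level was 625 to 1340 and 840.3 to 1069 with HDE, against 448 to 836 and 426 to 792 in the controls, and 5 of the 8 neutrophil genes had mean raw counts under 44.

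Endothelial and angiogenic genes formed the main group that fell. Of 21 tested, HDE lowered 9 and raised 1 (Hif1a) without NNK, and lowered 13 and raised 1 with NNK, beside 4.38% and 5.67% of all genes lowered. The numbers lowered were 18 and 19 with TMM factors, 1 and 6 with the positive control probes and 15 and 18 with no scaling. Over all 388 genes the numbers lowered were 56 and 78, 2 and 11, and 30 and 51 in these scalings. The list's median differences were −0.44 and −0.45 and lay between −1.02 and −0.48 in the other scalings. The difference between 9 and 13 rests on no gene with an interaction p under 0.05, and the list's interaction median was −0.06. Vegfa, the main endothelial growth factor, measured 2342 to 3241 in saline only and 2009, 2034, 1172 and 1978 in HDE only lungs. It measured 2673 to 3198 in saline + NNK and 2046, 1229, 1412, 2529 and 1217 in HDE + NNK lungs. All HDE lungs lay below all controls on both sides, with falls of 0.63 and 0.83 and an interaction of −0.20 (interval −0.72 to 0.31). Lyve1, a hyaluronan receptor of lymphatic endothelium, fell by 0.97 and 0.84, and Kdr, the main VEGF receptor, by 0.59 and 0.76. Dll4, a Notch ligand of arterial endothelium, fell by 0.81 and 0.55. Epithelial genes moved less. Epcam differed by 0.06 and 0.03, Cdh1 (E-cadherin) by −0.14 and −0.15, and Muc1, a mucin of alveolar and tumor epithelium, rose by 0.54 and 0.45, with interactions between −0.09 and −0.01.

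Among 31 tested genes of tumor epithelium and progression 21 interaction estimates were below 0, with a median of −0.05, and Itga6 was the only member at p under 0.05. The matrix and TGF-beta list of 21 had a median of 0.00. Tgfb1 rose by 0.47 and 0.47 and Vim, an intermediate filament of mesenchymal cells and leukocytes, by 0.47 and 0.54. Myc, a growth-promoting transcription factor, rose by 0.87 with NNK (adjusted p = 0.028) and differed by 0.47 without (adjusted p = 0.329), and its interaction of 0.41 had an interval of −0.54 to 1.35. Fos had the widest interval of the 388 genes, −2.30 to 1.06 around −0.62. Its counts depended on the run, at 219 to 1314 in run 1 and 119 to 289 in run 2.

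Of 22 tested interferon-stimulated genes, HDE raised 3 and lowered 1 without NNK, and raised 2 and lowered 2 with NNK. Of all genes it raised 30.2% and 29.9%, and lowered 4.38% and 5.67%. The median HDE effects of the 22 were 0.02 and −0.03, beside 0.16 over all genes. With TMM factors, which moved the median over all genes to −0.06 and −0.00, HDE raised 0 and 2 and lowered 5 and 8 of the 22. Their medians were then −0.19 and −0.21. Of all 388 genes, TMM factors gave 76 and 101 raised and 56 and 78 lowered. With the positive control probes the medians of the 22 were −0.21 and −0.44 (−0.05 and −0.22 over all genes), and with no scaling −0.56 and −0.54 (−0.41 and −0.35). Herc6, the interferon-induced gene with the smallest interaction p, was not on this list of 22. Interaction estimates were below 0 for 14 of the 22, against 230 of 388 genes in all, with a median of −0.09 and 0 at p under 0.05. That median was below 0 in all 6 scalings, from −0.25 with the positive control probes, which shifted all genes to −0.20, to −0.00 with no scaling. Ifit1, which binds viral RNA, fell with NNK by 0.41 (adjusted p = 0.041) and differed by −0.07 without, an interaction of −0.34 (interval −0.81 to 0.13). Stat2, a subunit of the ISGF3 complex that type I interferon activates, was at −0.29.

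ISGF3 binds the interferon-stimulated response element, whose core reads GAAANNGAAA or, on the other strand, TTTCNNTTTC. Both orientations were searched from 250 bases before to 50 bases after the transcription start in RefSeq promoters (GRCm38.p6). Of the 22 tested interferon-stimulated genes 20 had a promoter entry and 8 held the core, of 15 MHC class I genes 11 had an entry and 1 held it (H2-T23), while 3.99% of all 27025 genes with promoter entries and 9.38% of the tested genes with an entry held it. A match is a description of letters and not a measured binding site. Herc6 had an entry without the core. The windows below show the core in capitals, with 25 bases to each side, for H2-T23, which had the second smallest interaction p, and for Stat2 and Ifit1, which had the smallest p in the interferon list, each on the strand of its gene.
H2-T23 (chr17:36032791-36032850, minus strand, core 124 bases before the start): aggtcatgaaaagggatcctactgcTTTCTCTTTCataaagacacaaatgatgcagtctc
Stat2 (chr10:128270251-128270310, plus strand, core 222 bases before the start): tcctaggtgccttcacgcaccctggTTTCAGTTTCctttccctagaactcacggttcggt
Ifit1 (chr19:34640760-34640819, plus strand, core 104 bases before the start): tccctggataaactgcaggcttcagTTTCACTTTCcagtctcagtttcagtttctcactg
Ifit1 held a further, separate match 85 bases before its start, visible in lower case in its window.

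Of 15 tested MHC class I genes and peptide-loading factors, HDE raised 3 (H2-D1, H2-K1 and Cd1d1) and lowered 1 (Mill2) without NNK, and raised 1 (Cd1d1) and lowered 1 (Mill2) with NNK. These are smaller shares raised than the 30.2% and 29.9% over all genes, and with TMM factors 0 and 1 were raised. H2-K1, a classical class I heavy chain, rose by 0.56 without NNK (adjusted p = 0.0044) and differed by 0.33 with NNK (adjusted p = 0.064), an interaction of −0.23 (interval −0.64 to 0.19). H2-D1 was at 0.36 and 0.11. Of 7 class II genes HDE raised 5 and 4, but 0 and 0 with the positive control probes or no scaling, and 6 interaction estimates lay below 0, although their median of −0.07 turned to 0.01 with TMM factors and 0.07 without scaling. Cd74, the invariant chain, rose by 0.55 without NNK (adjusted p = 0.0044) and differed by 0.32 with NNK (adjusted p = 0.064). Cd274, the ligand PD-L1 of the PD-1 checkpoint, rose in both by 1.10 and 0.69, an interaction of −0.41 (interval −1.03 to 0.20). Its HDE only values were 548, 496, 578 and 248, and its HDE + NNK values were 411, 389, 405, 391 and 521.

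HDE was called in only 1 of the 2 settings for 48 genes, 22 without NNK and 26 with NNK, and in all 48 the estimate had the same sign in the other setting. Of the 22, 1 (Itga6) had an interaction p under 0.05 and the interval stayed within 2-fold for 20. They included H2-D1, H2-K1, Cd74, Tlr4, Irak4, Marco, Jak2 (a kinase of cytokine receptors, 0.40 and 0.19) and Lamp1 (a lysosomal membrane protein, 0.42 and 0.23). Of the 26, 0 had p under 0.05, the smallest being 0.086 for Cd3g, and the interval stayed within 2-fold for 22. They included Ccl17, Cd3g, Myc, Ifit1, Tgfb2, Thbd (thrombomodulin, an endothelial anticoagulant, −0.46 and −0.68) and Lbp (the endotoxin-binding protein, 0.38 and 0.63). For the other 47 of the 48 the test of the difference itself did not reach an unadjusted p under 0.05.

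Genes below the count minimum were described on log2(normalized count + 20), which understates changes of low genes, and 2 of 378 had an interaction over 0.5 in size. Both encode neutrophil chemokines of the CXCR2 receptor, and their raw counts passed the negative control limit (mean plus 2 SD) in 15 (Cxcl5) and 14 (Cxcl1) of 21 libraries. Cxcl5 measured 197, 219, 172 and 39.9 in HDE + NNK run 1 lanes 7, 8, 9 and 11 and 30.7 in run 2 lane 9. HDE only lungs had 79.1, 66.5, 18.7 and 31.8, saline only lungs 21.5 to 47.4 and saline + NNK lungs 10.3 to 74.6. Thus 3 of 5 HDE + NNK lungs, all of run 1, lay above every other lung of the series. The difference was 1.01 on this scale, and when all genes were tested with no count minimum it was 1.45 (interval −0.04 to 2.93, adjusted p = 1.00 in edgeR). Cxcl1 measured 87.7, 79.9, 60.7, 69.2 and 49.8 in HDE + NNK lungs, all above the saline + NNK range of 11.4 to 41.6, and 73.6, 33.2, 38.2 and 8.37 in HDE only lungs, which overlapped 18.6 to 33.6 in saline only lungs. Its interaction without a count minimum was 0.66 (interval −0.49 to 1.81). In that fit HDE raised Cxcl5 (1.95, adjusted p = 0.0032) and Cxcl1 (1.29, adjusted p = 0.011) with NNK, and the estimates without NNK were 0.51 and 0.63 with adjusted p of 0.522 and 0.301.

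NNK itself changed no gene past the adjusted threshold in edgeR, with 0 of 388 in saline lungs (4 at unadjusted p under 0.05) and 0 in HDE lungs (8 unadjusted). These contrasts share their libraries with the interaction and add no separate evidence on it. The 15 other housekeeping genes tested had interactions of −0.13 to 0.26 with a median of 0.00. The scaling genes ranged from −0.18 for Sdha to 0.15 for Oaz1.

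The interaction was also estimated within each instrument run. In run 1 alone the median over all genes was −0.21, 19 genes had p under 0.05, all below 0, and 1 gene passed adjustment. That gene was Cd274, at −0.99 (interval −1.38 to −0.61, edgeR, n = 12, p = 9.8e-05, adjusted p = 0.038). In run 2 alone, where HDE + NNK was 1 library assumed to vary like the others, Cd274 was at 0.60 (interval −0.70 to 1.91), the median over all genes was 0.07, 11 genes had p under 0.05 and 0 passed adjustment. The difference between the runs was then tested in a fit with 1 mean per group and run, a test chosen after seeing the data. In edgeR 0 of 388 genes passed adjustment and 27 had an unadjusted p under 0.05, of which 26 were lower in run 1, and the median difference over all genes was −0.25. For Cd274 the run 1 estimate minus that of run 2 was −1.60 (interval −2.76 to −0.43, adjusted p = 0.641). Further genes were chosen after their values were seen. H2-K1 was at −0.73 in run 1 and 0.33 in run 2, and the guanylate-binding protein gene Gbp2b at −1.06 and 0.87, whereas H2-Ab1 (−0.72 and −0.70), Herc6 (−0.54 and −0.59), H2-T23 (−1.12 and −0.15) and Ifit1 (−0.68 and −0.09) were below 0 in both. As lists, MHC class I had medians of −0.39 and 0.28, MHC class II −0.46 and 0.37, and interferon-stimulated genes −0.27 and 0.04. In run 1, 322 of all 388 genes lay below 0, beside 18 of 22 interferon-stimulated, 14 of 15 MHC class I and 7 of 7 class II genes. In run 2, 225 of 388 lay above 0, beside 12, 12 and 5 of these lists. Across genes the 2 runs' estimates had a correlation of −0.23, and 173 of 388 had the same sign. With run as a term in the fit of all 21 libraries, 0 genes passed adjustment and 5 had p under 0.05, Herc6 with the smallest (n = 21, p = 0.0047). What set the runs apart, beyond the instrument run and its animals, was not tested.

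**Figure D5:**
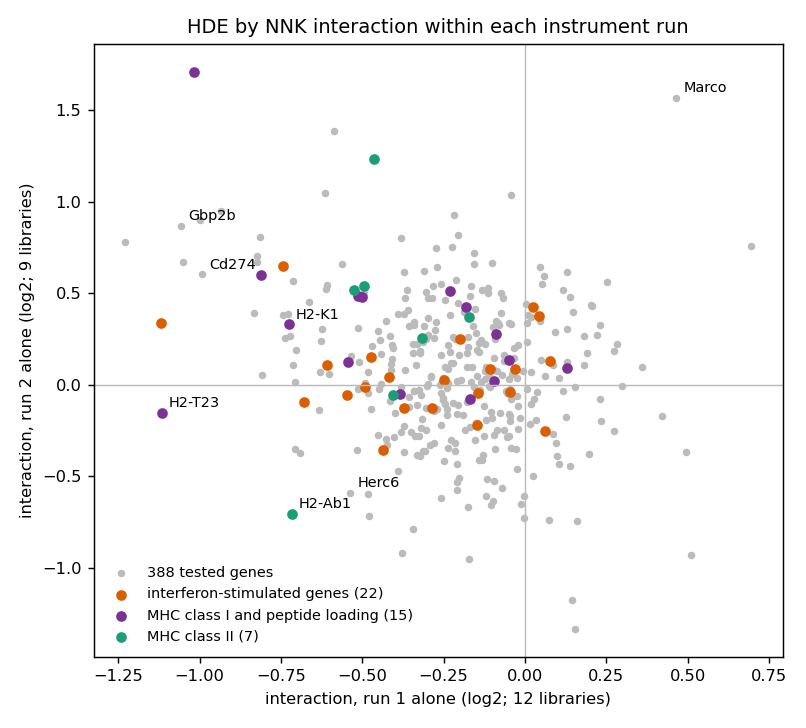
HDE by NNK interaction in log2 units estimated from run 1 alone (12 libraries, horizontal) and run 2 alone (9 libraries, vertical) for 388 genes, with 3 gene lists in color. Of all genes 322 lie left of 0 in run 1 and 225 above 0 in run 2, and Herc6 and H2-Ab1 lie below 0 in both.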

How the data were processed

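Lung RNA (50 ng) was hybridized for 16 h to the mouse panel of 770 genes and counted on a NanoString nCounter instrument. The authors deposited raw barcode counts per probe with 8 negative and 6 positive control probes. They also deposited a table of scores, the counts with every value under 87 raised to 87, which alone carries replicate numbers and sex and was used for alternatives. Columns of the raw table name group, run and lane, so libraries were not matched between the tables. No aligner or genome build applies to the probe counts. Of 388 tested genes 387 matched RefSeq names (382 by symbol, 5 by synonym).

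Counts were fitted in edgeR 4.0.16 (R 4.3.3; quasi-likelihood, robust) with 1 mean per group over 21 libraries and scaling to the 4 housekeeping genes Sdha, Rpl19, Oaz1 and Eef1g (geometric mean). Genes with a mean count of 87 or more were tested, following the 87-count limit of the study's methods, with Benjamini-Hochberg adjustment over all of them and intervals at 95%. The script was tested on simulated data. Alternatives used other scalings, DESeq2 1.42.0, limma 3.58.1 (log2 of normalized counts plus 1 or 20), other count minimums, run, sex or replicate terms, single runs and left-out libraries. A test of the interaction between runs was added after seeing the data. Named genes were the 10 smallest interaction p, the 5 largest estimates in each direction, the 12 largest rises and 8 largest falls with HDE, the study's own genes, leading list members, scaling genes and 5 low genes, and some of these are not reported here. The members and gene lists were chosen with earlier results of these data known. Each lung was 1 animal, and intervals and p-values cover the spread between animals and counting together. Raw totals of 174604 to 529829 per library and up to 40 counts in negative probes limit precision for low genes.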

Additional observations from a re-analysis of the deposited data

Results flagged for a closer look

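Of 84 groups of libraries examined (21 genes by 4 groups), 7 held 1 value far from the others by Dixon's ratio at the 95% level, and chance flags about 1 in 20 such groups. H2-T23 was at 246 in HDE + NNK run 1 lane 11, above 4 lungs at 139 to 155. Irak4 was at 95.5 in HDE + NNK run 1 lane 7, below the other lungs at 114 to 119. Ccl5 was at 68.6 in saline + NNK run 2 lane 1. Chil3 was at 3900 in saline only run 2 lane 4. Trem2 was at 33.5 in HDE only run 2 lane 12 and at 69.6 in saline + NNK run 1 lane 1. Vegfa was at 1170 in HDE only run 2 lane 11, against 1978 to 2034 in the other HDE only lungs.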

How the results depend on the processing

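The count of genes past the adjusted threshold for the interaction was 0 in each alternative and with each library left out, except run 1 alone (1). The 4 genes at unadjusted p under 0.05 became 7 with TMM scaling, 0 with positive control scaling or none, 1 with 87 counts in every library, 2 in limma with a pseudocount of 20, 19 in run 1, 11 in run 2 and 14 without HDE only run 2 lane 12 and saline only run 2 lane 3. They ranged from 2 to 14 with 1 library left out (14 without HDE + NNK run 1 lane 11, 10 without HDE only run 2 lane 12, 8 without HDE only run 1 lane 10). The separate table with counts under 87 raised to 87 gave 3 by itself, 1 with the replicate block and 1 with sex as a term. Whether equal replicate numbers of the separate table pair mice was not settled. Of 28 same-numbered pairs 15 correlated above 0.1 (r from −0.23 to 0.51), and pairs with different numbers were not compared.

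The 117 rises with HDE without NNK became 76 with TMM, 33 with positive control scaling, 28 without scaling, 68 with 87 counts in every library and 53 in run 2 (97 to 139 with 1 library left out). The 17 falls became 56, 2, 30 and 11 in the first 4 of these and 4 in run 1 (7 to 23, the 7 without HDE only run 2 lane 11). With NNK the 116 rises became 31 with positive control scaling, 37 without scaling, 64 with 87 counts in every library, 184 with no minimum and 50 in run 2 (107 to 124). The 22 falls became 78 with TMM, 54 with all housekeeping genes, 11 with positive control scaling, 51 without scaling and 12 in run 2 (12 to 48, with 48 without HDE + NNK run 1 lane 11, 12 without lane 9 and 13 without lane 8 of the same run and group). The causes were not tested, apart from the 218 genes left by the stricter minimum. The interaction median over all genes was −0.20 with positive control scaling. Single-gene HDE effects were followed only for the 12 largest rises and 8 largest falls with HDE. These were chosen from the same data, so stable calls were largely built into the choice. No call of an HDE effect reversed among them. Over the alternatives, 53 values of these HDE effects lost and 32 gained a call, while 1497 kept their status. Interactions were followed for 55 named genes, and 1 (Cd274 in run 1 alone) gained a call. Of their interaction values without a call, 163 changed sign and 2018 kept it. Low depth limits the 378 genes under the minimum.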

Other observations

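The panel's cell type sums gave HDE responses that were close with and without NNK. On the log2 scale the summed B cell genes were 1.31 higher with HDE without NNK and 1.33 higher with NNK. Plasma cell genes were 0.70 and 0.63 higher, and neutrophil genes 0.69 and 0.71. Mast cell and eosinophil genes were 0.80 and 0.70 higher, but 6 of the 7 had mean raw counts under 44. Kit, the 1 abundant enough to test, differed by −0.12 and −0.40. How far background counts carried the sums of low genes was not tested. Endothelial genes, all 9 abundant, were at −0.49 and −0.61, and NK and cytotoxic cell genes at 0.02 and 0.17. Mean raw counts were under 44 for 13 of the 17 NK and cytotoxic cell genes, 5 of 12 B cell genes and 3 of 6 plasma cell genes. In saline only lungs the plasma cell sum was 1078 to 1270, and Xbp1 alone was at 772 to 948. Cd38, the other of its 2 tested genes, had medians of 217 in saline only and 238 in HDE only lungs. With NNK its medians were 198 in saline and 210 in HDE lungs. The sums were not tested.

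Spread within groups was wider in HDE-exposed lungs, with a median coefficient of variation over the 388 genes of 23.3% in HDE only and 22.2% in HDE + NNK lungs, against 14.1% in saline only and 14.5% in saline + NNK lungs. Of 3 further low genes with the largest differences, Slc7a11, the cystine transporter, passed the negative control limit in 13 of 21 libraries. It was at 0.72 (interval −0.13 to 1.56, with no count minimum in edgeR) and rose with HDE in NNK-treated mice by 1.13 (adjusted p = 0.0035). Mx2 and Ltk passed that limit in 5 and 2 of 21 libraries, so no difference is given for them.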
